A study of Homo sapiens with 8 samples.

Results

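Metallothionein genes, the zinc transporter families SLC30A and SLC39A, and the metal-sensing transcription factor MTF1 were examined in U2OS, a human osteosarcoma cell line, after silencing of CDK9, the kinase that releases paused RNA polymerase II. The members were selected on gene symbol in the platform annotation, and where a gene had several probe sets the one with the highest mean signal over all 8 arrays was chosen. This gave 40 genes of the 18417 tested: 15 metallothionein genes and pseudogenes, 10 SLC30A genes, 14 SLC39A genes and MTF1. Their level over all arrays chose the probe sets, so levels are given as a description. These families were proposed with group differences of the same data already known, so a family's count of changed genes is a description of a chosen list and not an independent result. Each gene's p-value was adjusted over all genes tested. Signals of different probe sets were not compared with each other.

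Total RNA of cultures transfected with CDK9 siRNA was compared with that of cultures transfected with a non-targeting siRNA, 4 arrays in each group. Both siRNAs were given at 10 nM with the same reagent in the same medium, cells were collected 72 h later, and the design text calls the replicates biological. The deposited values were log2 signals per probe set. Replicate 1 of both groups (array set 1) had column medians of 5.85 for CDK9 siRNA and 5.80 for control, and the other 6 arrays (array set 2) lay between 6.99 and 7.04, so each value was compared within its own array set. CDK9 itself read 8.0, 9.03, 9.09 and 9.04 in CDK9 siRNA replicates 1 to 4 and 9.81, 10.86, 10.89 and 10.86 in control replicates 1 to 4, which left 28.4% of the control signal (limma adjusted p = 2.18e-07). An exact two-sided permutation test of this single value within array sets gave p = 0.05, the smallest that its 40 arrangements allow. Of 7 measured osteoblast lineage markers, RUNX2, SP7, COL1A1, COL1A2 and SPARC lay above the lowest 30% of gene means (called dim here), while ALPL and IBSP were dim. Of 8 measured markers of other cell types, 7 were dim and KRT8 was not. RUNX2 and COL1A1 were lower with CDK9 siRNA, by log2 differences of -0.60 (adjusted p = 0.000344) and -0.51 (adjusted p = 0.00110), and EPCAM, a dim epithelial marker, was higher by 0.32 (adjusted p = 0.0366, or 0.0841 when same-numbered replicates were paired in a block). Of the other epithelial markers, KRT8 differed by -0.23 (interval -0.38 to -0.07, adjusted p = 0.0563) and CDH1, which was dim, by -0.06 (adjusted p = 0.726). The part of these markers in the results below was not tested.

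Metallothioneins are small cysteine-rich proteins that bind zinc and copper and take up cadmium. MTF1 senses free zinc and switches on their genes through short metal response elements in the promoters. SLC30A transporters (ZnT proteins) carry zinc out of the cytosol, across the plasma membrane or into organelles, and SLC39A transporters (ZIP proteins) carry it into the cytosol. SLC30A1, the zinc exporter of the plasma membrane, is itself a target of MTF1.

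Promoters are shown because MTF1 is known to act through this element, and the genes below include MTF1 and its known targets. The core of this element was searched as TGCACNC and TGCGCNC on both strands, overlapping matches allowed, in the 250 bases before each gene start (RefSeq, GRCh38.p14). Windows of 27 of the 40 members are counted below. Matches are in capitals, and each sequence reads 5′ to 3′ on the strand of its gene. The windows are MT2A (chr16:56608334-56608583, plus strand), MT1X (chr16:56682220-56682469, plus strand), MT1B (chr16:56651636-56651885, plus strand), MT1H (chr16:56669564-56669813, plus strand), MT4 (chr16:56564823-56565072, plus strand) and SLC30A1 (chr1:211579162-211579411, minus strand).
MT2A: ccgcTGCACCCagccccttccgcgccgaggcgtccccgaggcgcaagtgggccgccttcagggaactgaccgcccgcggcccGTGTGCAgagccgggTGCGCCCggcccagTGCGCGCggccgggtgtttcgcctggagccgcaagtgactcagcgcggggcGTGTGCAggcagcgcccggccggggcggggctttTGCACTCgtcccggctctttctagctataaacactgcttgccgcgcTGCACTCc
MT1X: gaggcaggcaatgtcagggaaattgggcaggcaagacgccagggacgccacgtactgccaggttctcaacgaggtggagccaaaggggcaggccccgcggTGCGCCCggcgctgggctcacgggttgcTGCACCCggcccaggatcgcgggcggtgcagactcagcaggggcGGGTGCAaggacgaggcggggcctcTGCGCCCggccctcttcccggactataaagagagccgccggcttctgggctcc
MT1B: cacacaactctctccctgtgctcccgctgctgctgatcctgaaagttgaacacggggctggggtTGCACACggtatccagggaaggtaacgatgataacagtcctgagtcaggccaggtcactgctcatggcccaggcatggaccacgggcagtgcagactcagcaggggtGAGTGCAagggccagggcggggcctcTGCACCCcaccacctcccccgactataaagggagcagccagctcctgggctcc
MT1H: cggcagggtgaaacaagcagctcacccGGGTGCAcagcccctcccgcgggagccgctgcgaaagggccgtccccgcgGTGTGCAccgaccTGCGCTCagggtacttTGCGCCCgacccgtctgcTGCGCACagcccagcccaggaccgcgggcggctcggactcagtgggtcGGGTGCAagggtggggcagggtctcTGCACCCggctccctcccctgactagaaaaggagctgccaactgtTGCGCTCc
MT4: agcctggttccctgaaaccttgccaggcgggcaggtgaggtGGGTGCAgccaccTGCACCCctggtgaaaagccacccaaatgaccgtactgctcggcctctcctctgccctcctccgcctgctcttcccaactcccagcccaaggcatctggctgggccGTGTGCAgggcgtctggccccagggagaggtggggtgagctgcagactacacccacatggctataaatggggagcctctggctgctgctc
SLC30A1: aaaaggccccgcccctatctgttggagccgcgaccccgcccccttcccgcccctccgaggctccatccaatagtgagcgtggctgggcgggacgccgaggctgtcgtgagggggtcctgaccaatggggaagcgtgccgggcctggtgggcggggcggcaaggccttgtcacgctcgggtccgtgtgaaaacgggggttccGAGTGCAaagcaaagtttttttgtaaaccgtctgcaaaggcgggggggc

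Of the 15 metallothionein genes only the 5 shown had a window, so MT1E, MT1G and MT1F, among others, could not be searched. The window of MT2A held 7 matches, that of MT1H 8, that of MT1X 4, those of MT1B and MT4 3 each, and that of SLC30A1 held 1. Of all 35114 promoter windows of this length, 24.8% held at least 1 match, 0.370% at least 4 and 0.0513% at least 6. In MT1B, MT1H and MT1X a match on the gene's strand ended 47 bases before the start, and MT1H and MT1X shared another on the opposite strand that ended 72 bases before it. Several zinc transporter genes have more than 1 window, and 11 of their 30 windows, from 10 of 21 genes, held a match, while the window of MTF1 held none. SLC39A14, the only member called lower below, is not among these 21 genes, and neither are SLC39A4 and SLC30A8. Member windows on chromosome 8, where these 3 absent genes lie, were left out of the counts after the search. The 35114 windows were not filtered in this way. Whether the absent genes hold a match is not shown. A match is a string of letters and not a measured binding site.

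Metallothionein genes were higher with CDK9 siRNA, 8 of 15, and none was lower. Of all 18417 genes, 6.73% were called higher and 7.47% lower (limma with the array set as a block, threshold of 0.05 on the p-value adjusted by Benjamini-Hochberg across every gene tested). The 8 were MT1E, MT1G, MT1DP, MT1P3, MT2A, MT1X, MT1HL1 and MT1B, with changes of 1.18-fold to 1.80-fold. All 15 log2 differences were above 0, with a median of 0.33, against 9115 of 18417 genes above 0 and a median of 0.00 over all genes. When the paired replicate numbers served as the block, here called replicate blocking, 8 of 15 were also called, against 4.41% of all genes higher and 4.75% lower, but MT1F took the place of MT1B. In bulk RNA, a change in the RNA of every cell and a change in how many cells hold the RNA cannot be told apart.

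**Figure D1:**
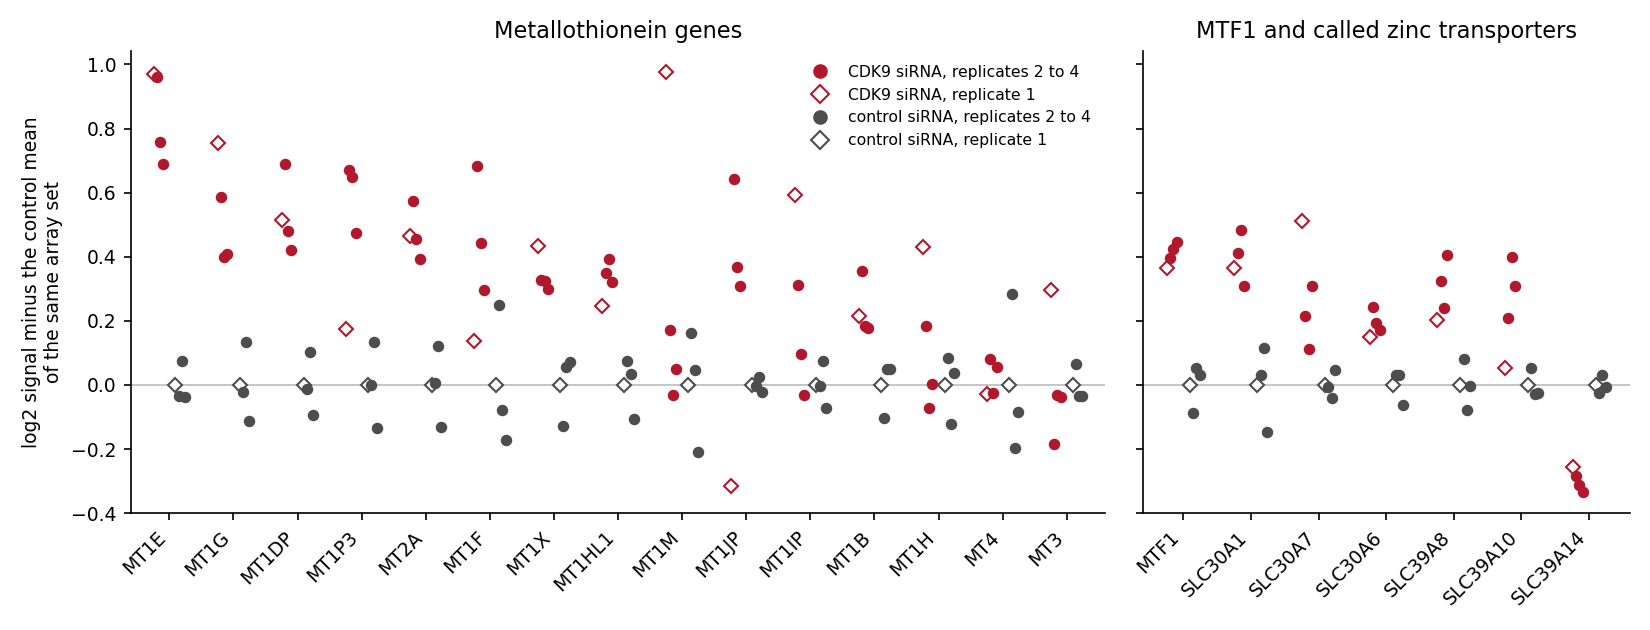
Log2 signal of each array minus the mean of the control arrays in the same array set, for the 15 metallothionein genes (left) and for MTF1 and the 6 zinc transporter genes past the test (right). Red marks are CDK9 siRNA arrays, grey marks are control arrays, and open diamonds are replicate 1, whose control is 0 by construction; for the 8 metallothionein genes past the test every red mark of an array set lies above all its grey marks.

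MT1E, one of the human MT1 isoforms, had the largest rise of the family. It read 8.81, 9.91, 9.71 and 9.64 in CDK9 siRNA replicates 1 to 4, against 7.84, 8.92, 9.03 and 8.91 in control replicates 1 to 4. In each array set every CDK9 siRNA array lay above every control array, and CDK9 siRNA replicate 2 was the highest of its set. The difference on the log2 scale was 0.84 ± 0.07 (SE, n = 4 per group), or 1.80-fold with a 95% confidence interval of 1.61 to 2.01 (limma adjusted p = 0.000218). It was 0.97 for array set 1 and 0.80 for array set 2.

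MT2A, the MT2 isoform of humans, read 12.08, 13.08, 12.96 and 12.90 in CDK9 siRNA replicates 1 to 4 and 11.61, 12.51, 12.63 and 12.38 in control replicates 1 to 4. The groups did not overlap in either array set. The difference on the log2 scale was 0.47 ± 0.07 (SE, n = 4 per group, limma adjusted p = 0.00236), with 0.46 for array set 1 and 0.47 for array set 2. Another pair of probe sets of MT2A, which were not used in the test, differed by 0.57 and 0.54. The 3 MT2A probe sets thus gave differences of like size and the same sign.

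MT1G, an MT1 isoform, read 8.86, 10.75, 10.56 and 10.57 in CDK9 siRNA replicates 1 to 4 and 8.10, 10.14, 10.30 and 10.05 in control replicates 1 to 4. Its log2 difference was 0.54 ± 0.08 (SE, n = 4 per group, limma adjusted p = 0.00298), and the groups did not overlap in either array set. MT1X, another MT1 isoform, read 8.53, 9.80, 9.80 and 9.77 with CDK9 siRNA and 8.09, 9.35, 9.53 and 9.55 in controls. The 3 CDK9 siRNA arrays of array set 2 lay within 0.03 of each other, all above the controls, and the difference on the log2 scale was 0.35 ± 0.06 (SE, n = 4 per group, limma adjusted p = 0.00576).

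The transcribed pseudogene MT1DP read 8.40, 9.91, 9.70 and 9.64 with CDK9 siRNA and 7.89, 9.21, 9.32 and 9.12 in controls, a log2 difference of 0.53 (adjusted p = 0.00187). The pseudogene MT1P3, on chromosome 20, read 6.86, 8.88, 8.86 and 8.69 with CDK9 siRNA and 6.69, 8.21, 8.35 and 8.08 in controls, a log2 difference of 0.49 (adjusted p = 0.00877). MT1HL1, on chromosome 1, read 7.18, 7.68, 7.72 and 7.65 with CDK9 siRNA and 6.93, 7.40, 7.36 and 7.22 in controls, a log2 difference of 0.33 (adjusted p = 0.00594). In these 3 as well, no CDK9 siRNA array lay below a control array of its set. Metallothionein genes and pseudogenes are close copies of each other, so a probe set may read RNA of several of them, and the named source of each signal is uncertain. The pseudogenes share this limit.

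MT1B and MT1F lay near the threshold. MT1B read 6.41, 7.29, 7.12 and 7.11 with CDK9 siRNA and 6.20, 6.83, 6.98 and 6.98 in controls (log2 difference 0.23 ± 0.06 SE, n = 4 per group, limma adjusted p = 0.0360). Replicate blocking gave an adjusted p of 0.0918, and it lost its call without any single array other than CDK9 siRNA replicate 4 (adjusted p between 0.0552 and 0.102). MT1F read 6.97, 8.13, 7.89 and 7.74 with CDK9 siRNA and 6.83, 7.70, 7.37 and 7.28 in controls. Its log2 difference of 0.39 ± 0.12 (SE) did not pass (limma adjusted p = 0.0562), but passed under replicate blocking (adjusted p = 0.0237) and without replicate 1 of either group (0.0463) or without control replicate 2 (0.0442). Both genes were apart between groups in both array sets. So were 9 of the 15 metallothionein genes in the upward direction, against 11.5% of all genes.

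The other metallothionein genes did not pass. MT3, known as the brain isoform, read 7.19, 8.16, 8.31 and 8.30 with CDK9 siRNA and 6.89, 8.41, 8.31 and 8.31 in controls. Its log2 difference was 0.01, with a 95% confidence interval of -0.16 to 0.19. MT4, known from squamous epithelium, was dim and differed by 0.02 (interval -0.20 to 0.24). For both genes the arrays of the groups were interleaved.

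MT1H, whose promoter window held the most matches among those shown, read 6.64, 7.05, 6.79 and 6.86 with CDK9 siRNA and 6.21, 6.95, 6.74 and 6.90 in controls. Its log2 difference was 0.14 (interval -0.07 to 0.34, adjusted p = 0.381), and the groups overlapped in array set 2. The transcribed pseudogene MT1IP read 6.71, 7.34, 7.12 and 6.99 with CDK9 siRNA and 6.12, 7.02, 7.10 and 6.95 in controls (log2 difference 0.24, adjusted p = 0.151). The dim members MT1M and MT1JP gave unlike differences in the array sets. The difference of MT1M was 0.98 for array set 1 but 0.06 for array set 2, that of MT1JP was -0.31 and 0.44, with adjusted p values of 0.262 and 0.252 over both sets. MT1JP passed without replicate 1 of either group (adjusted p = 0.0146). Of all 15 metallothionein genes, 12 had a difference above 0 in both array sets, as had 5136 of all 18417 genes, dim ones included. Of the 12 metallothionein genes that were not dim, 11 had such a difference.

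**Figure D2:**
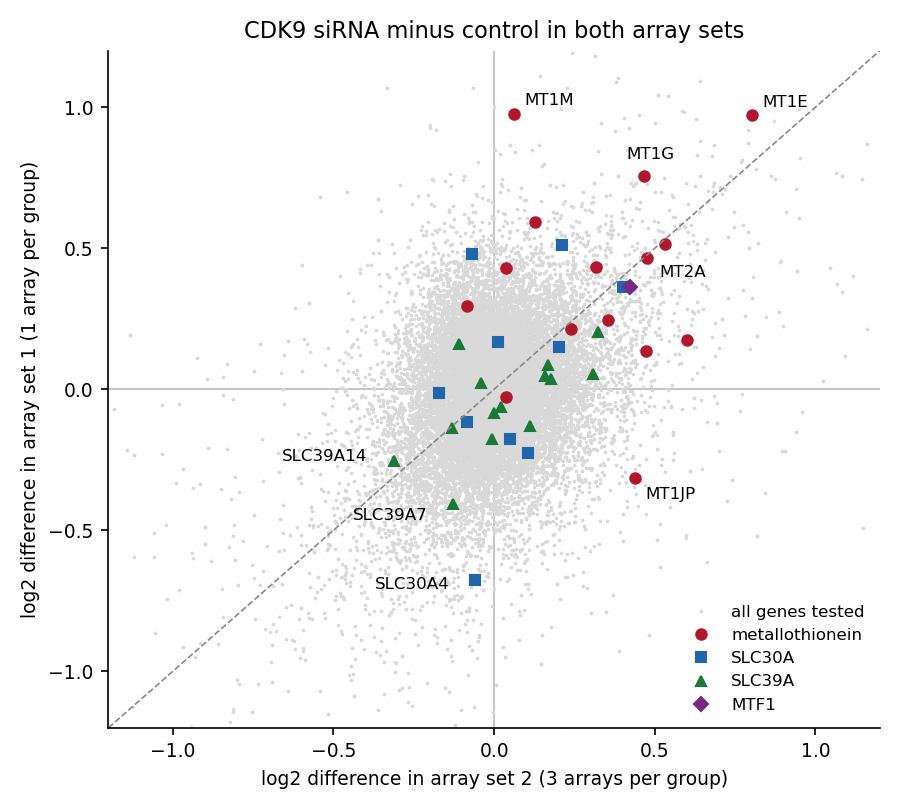
Log2 difference of CDK9 siRNA minus control in array set 2 (horizontal axis, 3 arrays per group) against the same in array set 1 (vertical axis, 1 array per group), with all genes tested in grey and the line of equal values dashed. MT1E lies at 0.80 and 0.97, MT2A at 0.47 and 0.46 and MTF1 at 0.42 and 0.36, while MT1M and MT1JP lie far from the line; 52 genes beyond 1.2 on either axis are not drawn.

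The group difference was tested for a change between the array sets with an interaction term. It passed for 395 of all genes and for 0 of the 40 members, of which MT1M had the smallest adjusted p (0.0665). Array set 1 held 1 array per group. The median deviation of the 12 metallothionein genes that were not dim, from the controls of the same array set, was 0.43, 0.47, 0.40 and 0.31 in CDK9 siRNA replicates 1 to 4. In the controls of array set 2 it was -0.00, 0.07 and -0.08 for replicates 2, 3 and 4. The medians over all genes stayed between -0.02 and 0.00 on every array.

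In gene order on chromosome 16 (RefSeq, GRCh38.p14), 13 of the 15 metallothionein genes lie next to each other, from MT4 and MT3 to MT2A and then the MT1 genes up to MT1X. The first genes in that order, MT4 and MT3, had differences near 0, and the 11 from MT2A to MT1X had differences of 0.14 to 0.84. For comparison the 6 tested genes on each side were read, a choice made after the members' values had been seen. Of these 12, NUDT21, a subunit of the pre-mRNA cleavage factor, was higher by 0.26 (adjusted p = 0.00652). GNAO1, a G protein alpha subunit, was lower by a log2 difference of -0.29 (adjusted p = 0.0365; replicate blocking gave 0.0709). The other 10 did not pass. That is 1 of 12 higher and 1 lower, against 6.73% and 7.47% of all genes. BBS2, the gene before MT4, differed by 0.26 (adjusted p = 0.0850), and NUP93, the gene after MT1X, by 0.04 (adjusted p = 0.643).

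**Figure D3:**
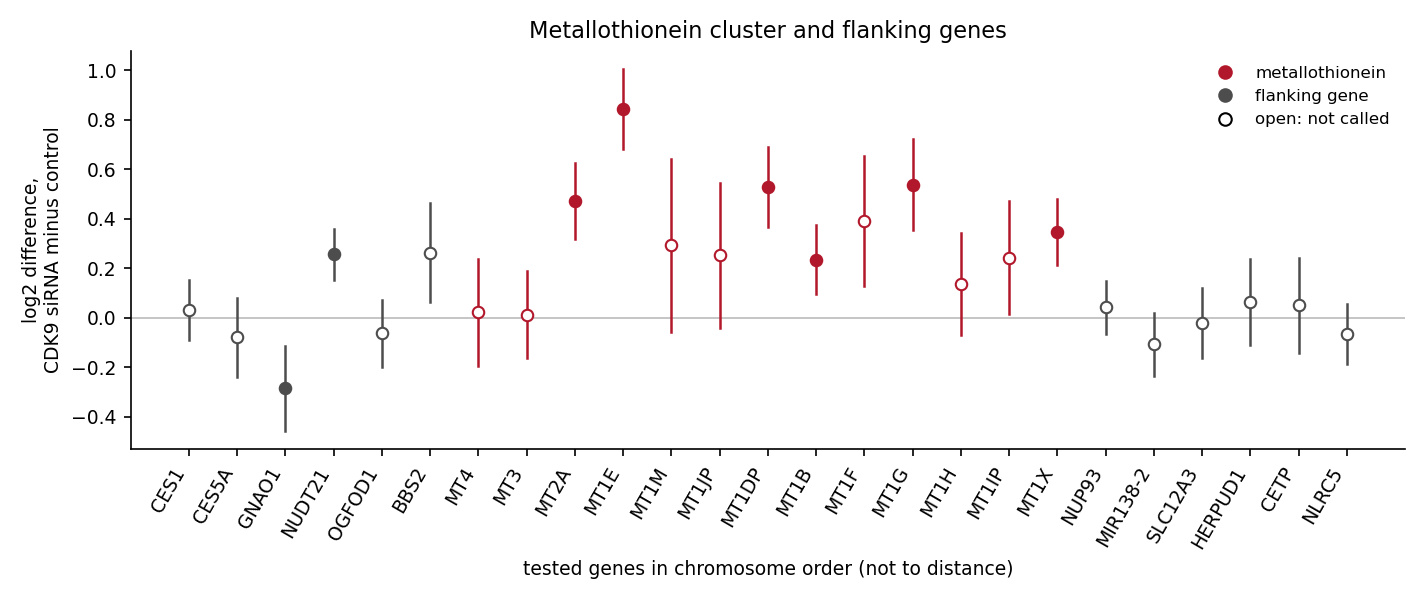
Log2 difference of CDK9 siRNA minus control (points) with 95% confidence intervals (lines) for 13 metallothionein genes (red) and 6 tested genes on each side (grey), in chromosome order and not to distance; filled points passed the test. MT2A to MT1X lie at 0.14 to 0.84, while MT4 and MT3 lie at 0.02 and 0.01. The 6 genes before MT4 lie at -0.29 to 0.26 and the 6 genes after MT1X at -0.11 to 0.06.

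MTF1, the zinc sensor, rose. Its probe set read 8.52, 9.39, 9.42 and 9.44 in CDK9 siRNA replicates 1 to 4, against 8.16, 8.91, 9.05 and 9.03 in control replicates 1 to 4. The groups did not overlap in either array set, and the 3 CDK9 siRNA arrays of array set 2 lay within 0.05 of each other. The difference on the log2 scale was 0.41 ± 0.05 (SE, n = 4 per group), or 1.33-fold with a 95% confidence interval of 1.22 to 1.44 (limma adjusted p = 0.00129). Array sets 1 and 2 gave 0.36 and 0.42.

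Among the SLC30A exporters, 3 of 10 rose and 0 fell, against 6.73% and 7.47% of all genes, and the median of the family was 0.04. SLC30A1 read 8.25, 8.58, 8.65 and 8.48 in CDK9 siRNA replicates 1 to 4 and 7.89, 8.20, 8.28 and 8.02 in control replicates 1 to 4. No CDK9 siRNA array lay below a control array of its set. Its log2 difference was 0.39 ± 0.07 (SE, n = 4 per group, limma adjusted p = 0.00599), or 1.31-fold, with 0.36 for array set 1 and 0.40 for array set 2.

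SLC30A7, which loads zinc into the early secretory pathway, read 9.27, 10.05, 9.94 and 10.14 with CDK9 siRNA and 8.76, 9.82, 9.79 and 9.88 in controls (log2 difference 0.29, adjusted p = 0.0268). SLC30A6, which forms a zinc transporter of the secretory pathway together with SLC30A5, read 8.60, 9.62, 9.57 and 9.55 with CDK9 siRNA and 8.45, 9.41, 9.41 and 9.32 in controls (log2 difference 0.19, adjusted p = 0.0336). Neither passed under replicate blocking, at adjusted p = 0.0527 for SLC30A7 and 0.0751 for SLC30A6. That leaves 1 of 10 SLC30A genes higher under that blocking, against 4.41% of all genes. SLC30A7 also lost its call without any 1 array other than CDK9 siRNA replicate 3 and control replicate 4 (adjusted p between 0.0532 and 0.0748), and SLC30A6 without any single array of array set 2 (between 0.0586 and 0.110). With arrays centred on their medians SLC30A6 did not pass either (limma adjusted p = 0.0506).

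The other 7 SLC30A genes did not pass. SLC30A5 differed by -0.01 (interval -0.14 to 0.13) and SLC30A9, a mitochondrial zinc transporter, by 0.02 (interval -0.13 to 0.17). SLC30A4 read 6.84, 7.92, 8.04 and 8.20 with CDK9 siRNA and 7.52, 8.05, 8.06 and 8.23 in controls, so its difference of -0.21 (adjusted p = 0.260) came mostly from the array set 1 pair, at -0.68 against -0.06 in array set 2. SLC30A3, the zinc transporter of synaptic vesicles, differed by -0.13. SLC30A2, SLC30A8, the transporter of insulin granules, and SLC30A10, a manganese exporter, were dim, with differences of 0.07, 0.05 and -0.09.

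**Figure D4:**
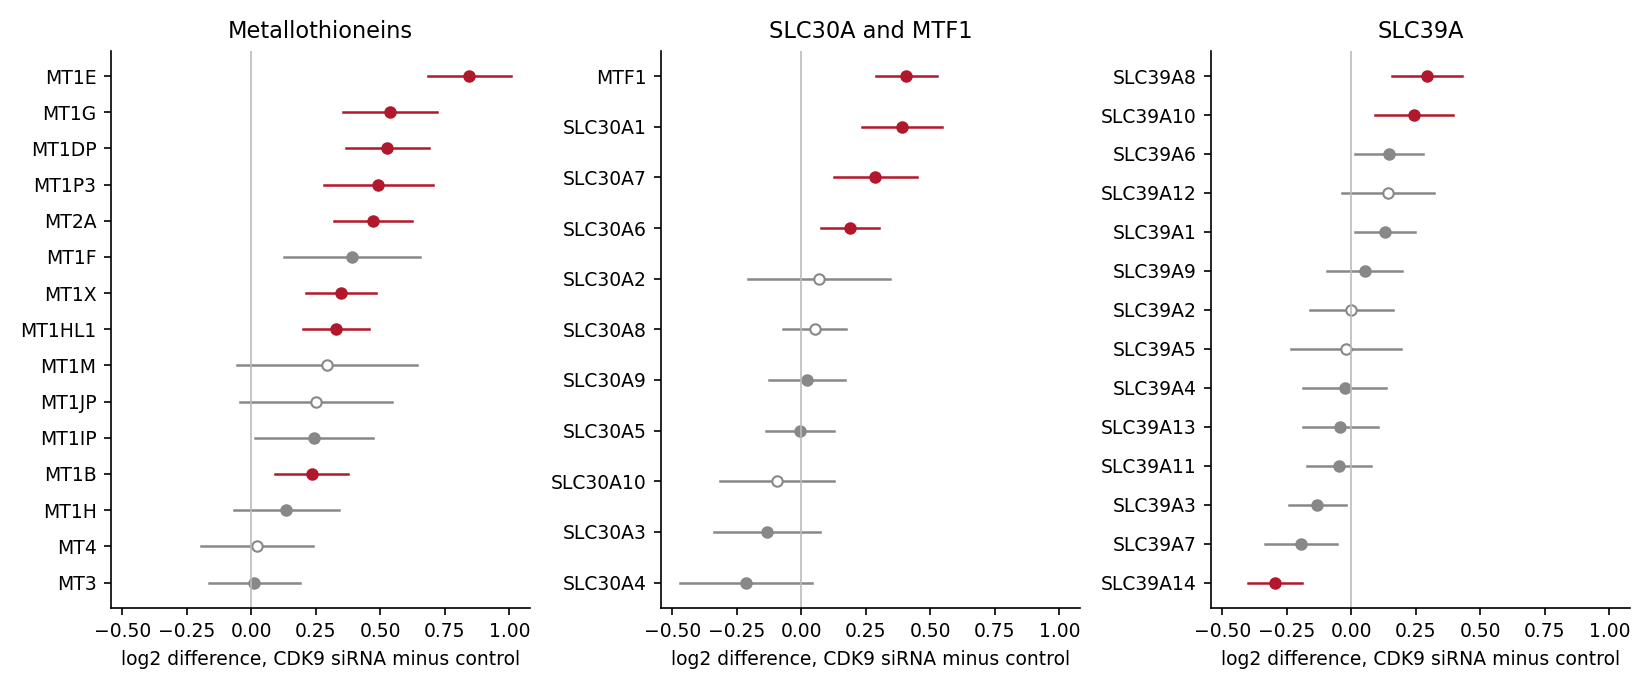
Log2 difference of CDK9 siRNA minus control with 95% confidence intervals for all 40 members in 3 panels, 15 metallothionein genes, MTF1 with 10 SLC30A genes, and 14 SLC39A genes. Red marks passed the test, grey did not, and open marks are dim genes; the metallothionein genes lie at 0.01 to 0.84 and the SLC39A genes at -0.30 to 0.29.

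Among the SLC39A importers, 2 of 14 rose and 1 fell, against 6.73% and 7.47% of all genes, and the median was -0.01. SLC39A8, which carries zinc, manganese and cadmium into cells, read 8.18, 8.72, 8.63 and 8.80 with CDK9 siRNA and 7.97, 8.47, 8.31 and 8.39 in controls. Its log2 difference was 0.29 ± 0.06 (SE, n = 4 per group, limma adjusted p = 0.0121), and the groups did not overlap in either array set. SLC39A10, a zinc importer of the plasma membrane, read 10.05, 10.93, 11.12 and 11.02 with CDK9 siRNA and 9.99, 10.77, 10.69 and 10.69 in controls (log2 difference 0.24, adjusted p = 0.0395). It failed the threshold under replicate blocking (adjusted p = 0.0922), with arrays centred on their medians (0.0628), or without any single array of array set 2 (between 0.0567 and 0.119), and its difference was 0.05 for the array set 1 pair and 0.31 within array set 2.

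SLC39A14, which carries zinc, manganese and iron into cells, fell. It read 8.58, 8.61, 8.58 and 8.56 in CDK9 siRNA replicates 1 to 4, against 8.83, 8.86, 8.92 and 8.88 in control replicates 1 to 4. Every CDK9 siRNA array lay below every control array, and unlike most genes its replicate 1 signals were level with the other replicates. The difference on the log2 scale was -0.30 ± 0.05 (SE, n = 4 per group, limma adjusted p = 0.00358), which is 81.4% of the control signal, with -0.25 for array set 1 and -0.31 for array set 2.

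SLC39A7, which releases zinc from the endoplasmic reticulum, read 9.01, 10.05, 10.12 and 10.16 with CDK9 siRNA and 9.42, 10.23, 10.23 and 10.25 in controls. Its log2 difference of -0.20 did not pass (adjusted p = 0.0664), though the groups did not overlap in either array set. It passed when dim genes were left out before the fit (adjusted p = 0.0379), and 3 probe sets of this gene held identical values. The other 10 SLC39A genes did not pass and had differences of -0.13 (SLC39A3) to 0.15 (SLC39A6). Among them were SLC39A1, a plasma membrane importer, at 0.13 (interval 0.02 to 0.25, adjusted p = 0.127), SLC39A9 at 0.05, SLC39A11 at -0.05 and SLC39A13 at -0.04. SLC39A4, the zinc importer of the gut, differed by -0.02, and SLC39A2, SLC39A5 and SLC39A12 were dim, at 0.00, -0.02 and 0.14. Arrays of the groups were apart in both array sets for 4 of the 14 in the upward and 3 in the downward direction, against 11.5% and 13.8% of all genes.

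Lists of other genes that handle metals or respond to them were read beside the members. Of 13 measured genes of other zinc handling, 2 rose and 0 fell, where 6.73% of all genes were higher and 7.47% lower. Both encode zinc enzymes of the carbonic anhydrase family, CA12 (log2 difference 0.41, adjusted p = 0.00160) and CA2 (0.37, adjusted p = 0.00491). The median of the list was 0.05.

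Of 11 measured genes of copper handling, 2 rose and 2 fell, beside 6.73% and 7.47% of all genes, with a median of 0.00. Replicate blocking left 1 higher and 1 lower, beside 4.41% and 4.75% of all genes. The copper importer SLC31A1 rose by 0.55 (adjusted p = 0.000670) and the copper chaperone SCO1 by 0.23 (adjusted p = 0.0265; replicate blocking gave 0.0642). COMMD1, which takes part in copper export, fell by 0.54 (adjusted p = 0.000351). The copper pump ATP7B fell by 0.24 (adjusted p = 0.0294; replicate blocking gave 0.0712).

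Of 12 measured genes of the cadmium and oxidative response, 5 rose and 2 fell, with a median of 0.12, while the shares over all genes were 6.73% and 7.47%. The cystine importer SLC7A11 (0.78), the peroxiredoxin repair enzyme SRXN1 (0.38), the thioredoxin reductase TXNRD1 (0.36), the quinone reductase NQO1 (0.34) and the glutathione synthesis subunit GCLM (0.29) rose, with adjusted p values up to 0.0223. Heme oxygenase HMOX1, which like the metallothioneins is known as a cadmium-induced gene, fell by 0.94 (adjusted p = 0.000549). The chaperone DNAJB1 fell by 0.28 (adjusted p = 0.0185; replicate blocking gave 0.0571).

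Metallothionein genes are also known as glucocorticoid targets. Of 13 measured genes of the glucocorticoid response, 2 rose and 4 fell, with a median of -0.06, and of all genes 6.73% were higher and 7.47% lower. Replicate blocking left 1 higher and 2 lower, where the shares of all genes were 4.41% and 4.75%. PDK4 rose by 0.73 (adjusted p = 0.00222) and NFKBIA by 0.26 (adjusted p = 0.0426; replicate blocking gave 0.0877). SGK1 fell by 0.71 and PER1 by 0.42, with adjusted p = 0.000767 and 0.00422. ERRFI1 fell by 0.48 and KLF9 by 0.25, with adjusted p values of 0.0324 and 0.0212, which replicate blocking moved to 0.0749 and 0.0567. The difference of ERRFI1 was 0.06 for array set 1 and -0.66 for array set 2.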

How the data were processed

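Log2 expression values of 33297 probe sets on 8 Affymetrix human gene arrays were analysed as deposited by the authors. The submitters' processing notes name build hg19, limma, RMA and version 1.1 of Affymetrix Expression Console. The role of each and which arrays were normalized together: not given in the sources used here. No array pair held mostly identical values.

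Probe sets with a single symbol (19460 of 33297) entered, and the highest-mean one of each gene was kept. 1 probe set annotated with several symbols, a member among them, was left out. Groups were compared across all genes with limma 3.58.1 in R 4.3.3 (lmFit, eBayes, two-sided). The block was the array set, which the numbers in the sample descriptions separate. Figures used Python 3.11.15 and matplotlib 3.10.9. The fit was tested on simulated data. The number of arrays limits the precision.

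The members, lists and block were chosen with earlier results of these data known, including that no gene passed without a block. Every member was accounted for, with values of every array for MTF1, members past the threshold and metallothionein genes that were not dim. The array values of SLC30A4 and SLC39A7 and the genes beside the chromosome 16 cluster were added after their values were seen. Of genes on other lists, those past the threshold were named. Deviations of same-numbered arrays from their group means correlated across genes at 0.822, 0.537, 0.494 and 0.607 for replicates 1 to 4, so the replicate number was tried as a block. Arrays of array set 2 with different numbers also correlated, at 0.406 to 0.561. Other alternatives covered the block, the scaling, dim genes, the choice of probe sets, eBayes settings and leaving out each array.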

Additional observations from a re-analysis of the deposited data

Results flagged for a closer look

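In 7 of 80 sets of 4 arrays (40 members in each group), 1 array stood apart from the other 3 after the mean of its array set was removed, by a gap above Dixon's 95% limit as a share of the range. Chance flags about 1 in 20 sets of 4 independent values, but no rate was computed for values from which the array-set mean was removed. None of the 7 was a CDK9 siRNA array. Control replicate 1 stood above the other controls for MT1JP (0.16 from the mean of its array set), SLC30A9 (0.11) and SLC30A5 (0.0886). Control replicate 3 stood below for SLC39A12 (-0.23) and SLC39A2 (-0.14), and control replicate 4 for SLC30A6 (-0.16) and SLC39A5 (-0.17). Of these genes SLC30A6 had passed the test, and it did not pass without control replicate 4 (adjusted p = 0.110). In array set 1, which holds 1 pair, the deviation of an array is minus that of its partner.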

How the results depend on the processing

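Without a block no gene passed in limma: 0 metallothionein, 0 SLC30A and 0 SLC39A genes, and 0 of all genes in either direction, while 28 genes were higher and 23 were lower when p under 0.05 was left unadjusted. The log2 differences of CDK9 (-1.82) and MTF1 (0.41) were the same there, with adjusted p = 1 for both, since the gap between array sets entered the residual. With the replicate block 1 SLC30A gene and 1 SLC39A gene were higher, and 813 genes were higher and 875 lower overall. In other settings the SLC39A counts were 1 higher with arrays centred on medians, and 2 lower after quantile normalization again, without dim genes or with trend and robust eBayes. With arrays centred on medians 2 SLC30A genes were higher. Leaving out 1 array at a time gave 1 to 2 SLC30A and 1 to 2 SLC39A genes higher, 714 to 1753 of all genes higher and 806 to 1578 lower. In these fits 7 to 9 metallothionein genes were higher, 0 were lower, and MTF1 stayed between 0.37 and 0.42. SLC30A fell to 1 without replicate 2 of either group, CDK9 siRNA replicate 4 or control replicate 3. MT1E, MT1G, MT1DP, MT1P3, MT2A, MT1X, MT1HL1, MTF1, SLC30A1, SLC39A8 and SLC39A14 passed in every alternative but the fit without a block. Over the members other than MTF1 there were 0 reversals of a call, 47 losses of one, 14 gains and 25 changes of sign among differences that passed in neither fit. The fits without replicate 1 of either group gave the same values as array set 2 alone, so a change there enters these counts more than once. The cause of the lost and gained calls was not tested. Arrays cannot show changes of dim genes well, and 9 of the 40 members were dim.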
